A study of Homo sapiens with 4 samples.

Results

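Subunits and assembly factors of respiratory complexes III and IV and of ATP synthase, chosen by symbol, were followed in NCC-IT-A3, an established human embryonal carcinoma cell line. They were taken as all protein-coding genes whose current symbols begin with UQCR, with COX and a digit, or with ATP5. Of 58 such symbols, 55 had a value in the files, out of 27685 gene IDs: 9 of complex III, 26 of complex IV (17 structural subunits and 9 assembly factors) and 20 of ATP synthase. The other 3 symbols are the subunits of complex IV encoded in mitochondrial DNA, which were not analysed here. The symbol rule leaves out genes with other names. Among these are CYC1 of complex III, given below with the related genes, and NDUFA4, which is in none of the lists here. Treated cells received barasertib, a small-molecule inhibitor of the mitotic kinase Aurora B, at 100 nM for 4 days, and control cells received the solvent DMSO. Both groups were the same line kept in RPMI medium with serum, with no other agent or genetic change named in the labels, and each group held 2 RNA-seq libraries. The labels do not say whether the libraries of a group come from separate cultures. The p-values below therefore measure the spread between these samples only, and that spread may be technical.

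Complex III takes electrons from ubiquinol and hands them to cytochrome c, and complex IV passes them on to oxygen. Both pump protons out of the mitochondrial matrix, and ATP synthase lets the protons flow back through a rotating ring of c subunits to make ATP. The catalytic centres of complex III and IV are partly encoded in mitochondrial DNA, while all the genes described here are nuclear and their proteins are imported. Pluripotent cells are known for high glycolysis while keeping a working respiratory chain.

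Values are TPM, the deposited transcript abundance corrected for transcript length and scaled to the same total in every library. The aligned bases behind them, estimated from the deposited coverage and FPKM, were 4.22 to 4.59 Gb per library. The 13938 genes whose mean reached 1 TPM were tested, and a gene is called where limma's adjusted p is below 0.05 over all of them. Changes are differences of mean log2(TPM + 1), barasertib minus DMSO, a scale that understates changes of low genes. The median change of all tested genes was 0.11 in the deposited TPM and 0.003 after median-of-ratios scaling, which sets the middle gene level between libraries, so a change of about 0.11 in TPM is the level of the typical gene. Quantile normalisation, the other scaling used, gives every library the same distribution of values. All 10 embryonal carcinoma markers, POU5F1 and SOX2 among them, had a mean of at least 1 TPM, and their summed level was 6879 to 7228 TPM with barasertib against 6136 to 6301 TPM with DMSO. The means of these markers ran from 3.30 to 3795 TPM, so the sum rests largely on the highest and does not show how each marker moved. Of the other cell types, 1 of 6 fibroblast markers reached 1 TPM (COL3A1; the summed fibroblast level was 3.21 to 3.59 against 1.68 to 2.30 TPM), none of 5 endoderm and none of 5 muscle markers did, and all 3 blood markers were at 0. Whether these shifts have a part in the results was not tested.

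In TPM most of the respiratory genes stood slightly higher with barasertib, 45 of 49 in sign against 32 of 49 after median-of-ratios scaling, and 11 of them passed the test in 1 direction under every scaling. Of the 49 tested, 19 rose, among 22.0% of all tested genes, and 3 fell, among 7.44% of all tested genes, by limma's adjusted p. The other 27 were not called. In either direction 44.9% of the members were called against 29.5% of all tested genes. The members are abundant transcripts, with a median of 194.5 TPM against 19.0 TPM over all tested genes, and abundant genes were called more often: of the 1717 genes at a mean of 100 TPM or more, 35.5% were higher and 19.5% lower. After median-of-ratios scaling 8 members were higher (12.0% of all tested genes) and 3 lower (12.3%). Quantile normalisation gave 14 higher (11.8% of all) and 3 lower (11.4% of all). Under all 3 scalings 8 were higher and 3 lower, beside 10.7% and 7.05% of all tested genes, and 16.8% and 16.3% of genes at 100 TPM or more. The share of members higher under every scaling was thus near that of genes at 100 TPM or more. In such bulk RNA, a change in the mixture of cells and a change of RNA per cell cannot be told apart.

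The changes were small. The median over the 49 was 0.16 in TPM and 0.045 after median-of-ratios scaling, against 0.11 and 0.003 over all tested genes. With quantile normalisation the median of the members was 0.12, against -0.008 over all tested genes. The positive differences made up 91.8% of the members in TPM and 65.3% after median-of-ratios scaling, against 66.9% and 50.4% of all tested genes. The 2 barasertib libraries were both above the 2 DMSO libraries for 37 members (49.1% of all tested genes) and both below for 3 (19.7% of all), and the groups overlapped for 9. Of the called members only COX7A1 also changed by at least 1.5-fold, where 7.12% of all tested genes were that much higher.

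**Figure D1:**
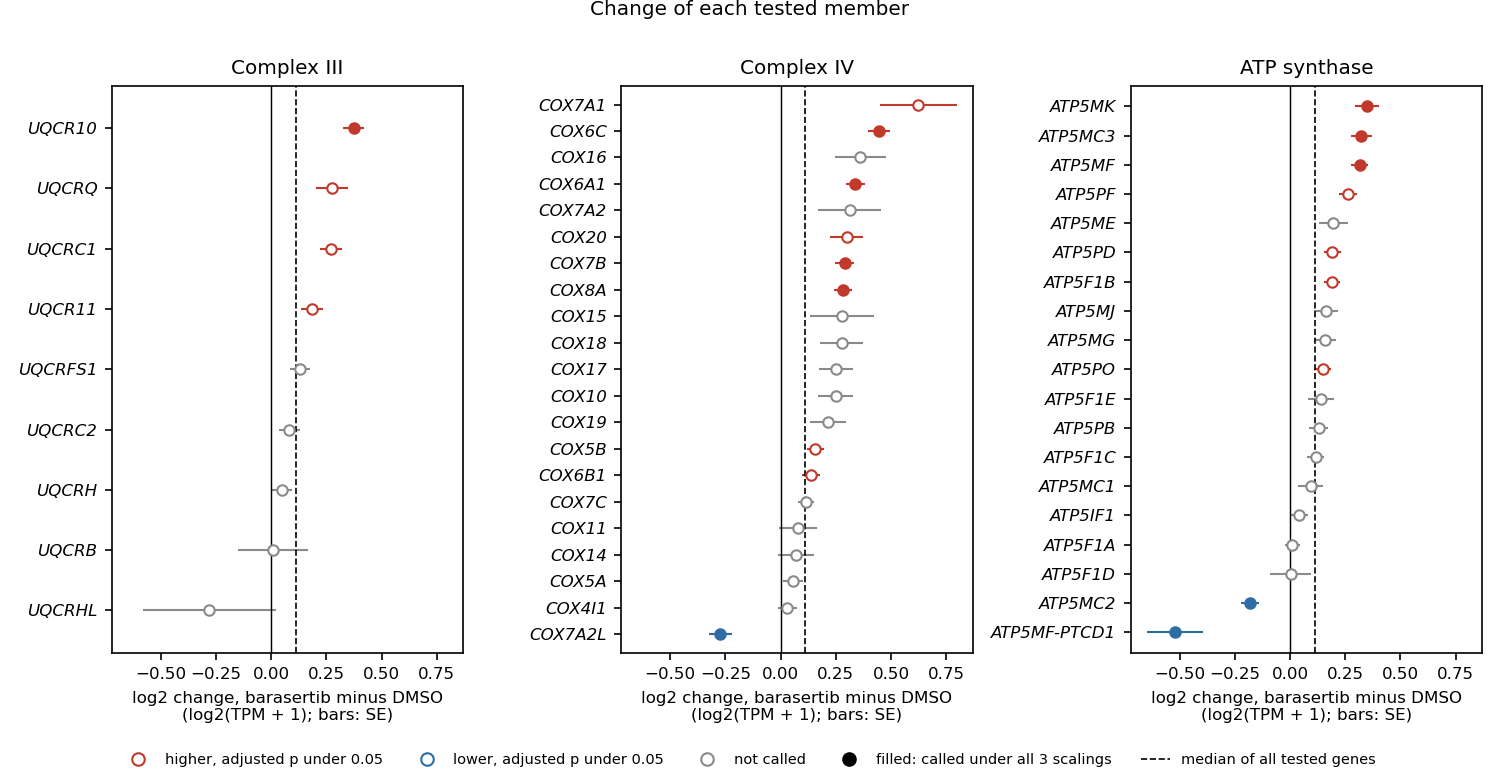
Log2 change (barasertib minus DMSO, log2(TPM + 1)) of each of the 49 tested genes by complex, with bars for the standard error; red points are higher and blue points lower by limma's adjusted p, filled points are called under all 3 scalings, and the dashed line is the median of all tested genes (0.11). Most points lie right of 0 and 3 called genes lie left of it, among them COX7A2L in complex IV and ATP5MC2 in ATP synthase.

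The genes called under all 3 scalings were UQCR10 of complex III, COX6A1, COX6C, COX7B and COX8A of complex IV, and ATP5MC3, ATP5MF and ATP5MK of ATP synthase, all higher, and COX7A2L, ATP5MC2 and the readthrough gene ATP5MF-PTCD1, all lower. Promoter windows of 4 of the genes that rose and 2 of those that fell are shown so that genes called in opposite directions can be read side by side. Each window runs from 250 bases before to 50 bases after the most upstream annotated start, from RefSeq on GRCh38.p14, written 5′ to 3′ on the gene's strand. Capitals mark matches, on either strand, to 2 copies of GCGC spaced by any 2 bases (a form of the NRF1 site), CCGGAA (the core bound by ETS factors such as GABPA) or AANATGGC (a form of the YY1 site). The ETS core can overlap its own reverse complement.
UQCR10 (chr22:29767119-29767418, plus strand): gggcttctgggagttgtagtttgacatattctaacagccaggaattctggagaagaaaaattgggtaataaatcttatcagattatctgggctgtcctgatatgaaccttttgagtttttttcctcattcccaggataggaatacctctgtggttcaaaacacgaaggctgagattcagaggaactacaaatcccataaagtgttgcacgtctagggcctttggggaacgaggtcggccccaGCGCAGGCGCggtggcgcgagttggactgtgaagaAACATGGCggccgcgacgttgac
COX6A1 (chr12:120437863-120438162, plus strand): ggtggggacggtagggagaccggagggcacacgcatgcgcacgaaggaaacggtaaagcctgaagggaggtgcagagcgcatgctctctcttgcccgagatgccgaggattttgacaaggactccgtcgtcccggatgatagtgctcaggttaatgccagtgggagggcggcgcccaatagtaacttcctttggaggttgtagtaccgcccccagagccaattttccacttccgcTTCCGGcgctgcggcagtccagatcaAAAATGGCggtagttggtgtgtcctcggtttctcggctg
COX8A (chr11:63974370-63974669, plus strand): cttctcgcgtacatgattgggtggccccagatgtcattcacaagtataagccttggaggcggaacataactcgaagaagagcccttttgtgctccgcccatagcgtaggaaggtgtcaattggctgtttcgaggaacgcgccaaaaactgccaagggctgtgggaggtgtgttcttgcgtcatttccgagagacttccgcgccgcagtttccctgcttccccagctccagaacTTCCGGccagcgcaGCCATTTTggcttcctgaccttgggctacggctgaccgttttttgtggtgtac
ATP5MK (chr10:103396426-103396725, minus strand): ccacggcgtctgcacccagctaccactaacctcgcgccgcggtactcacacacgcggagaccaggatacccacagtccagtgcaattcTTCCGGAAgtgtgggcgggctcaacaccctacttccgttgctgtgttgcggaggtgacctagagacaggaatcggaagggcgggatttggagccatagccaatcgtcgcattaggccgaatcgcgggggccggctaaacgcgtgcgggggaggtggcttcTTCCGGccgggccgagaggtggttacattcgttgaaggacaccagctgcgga
COX7A2L (chr2:42368908-42369207, minus strand): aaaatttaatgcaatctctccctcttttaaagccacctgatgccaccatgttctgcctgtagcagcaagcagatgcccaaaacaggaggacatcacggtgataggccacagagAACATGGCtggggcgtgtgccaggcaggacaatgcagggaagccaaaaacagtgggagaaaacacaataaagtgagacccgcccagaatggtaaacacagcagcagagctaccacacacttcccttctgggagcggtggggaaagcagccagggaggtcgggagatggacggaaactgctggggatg
ATP5MC2 (chr12:53676281-53676580, minus strand): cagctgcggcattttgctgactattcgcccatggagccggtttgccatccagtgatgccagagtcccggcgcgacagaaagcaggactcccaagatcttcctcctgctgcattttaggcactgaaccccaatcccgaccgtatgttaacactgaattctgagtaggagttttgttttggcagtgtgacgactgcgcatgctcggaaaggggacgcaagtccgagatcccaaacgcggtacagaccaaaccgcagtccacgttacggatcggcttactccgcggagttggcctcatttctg

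UQCR10 holds an NRF1 match and a YY1 match, COX6A1 and COX8A each hold an ETS and a YY1 match near the start, and ATP5MK holds ETS matches only. COX7A2L holds a YY1 match in this window and ATP5MC2 holds none of the 3 motifs in any of its windows. RefSeq windows were at hand for 43 of the 55 members, 53 windows in all. Among them 49.1% held the ETS core, 28.3% the YY1 form and 22.6% the NRF1 form, against 21.2%, 7.37% and 10.6% of all protein-coding windows. In the 49 windows of tested members the shares were 53.1%, 30.6% and 22.4%. In windows of all tested protein-coding genes they were 26.9%, 9.15% and 13.8%. By complex, the NRF1 form was in 57.1% of 7 windows of complex III, 14.3% of 28 of complex IV and 22.2% of 18 of ATP synthase. Of the 8 genes that rose under all scalings, 5 had a window, and of these 5 windows 4 held the ETS core, 4 the YY1 form and 1 the NRF1 form. Of the 3 that fell, 2 had 5 windows between them, with no ETS or NRF1 match and 1 YY1 match. Among the other tested members, 22 of 39 windows held the ETS core, 10 the YY1 form and 10 the NRF1 form. These are matches of letters, counted over few windows, and several windows of one gene overlap.

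In complex III, 4 of 9 genes rose, none fell and 5 were not called, where 22.0% of all tested genes rose and 7.44% fell. Of genes at 100 TPM or more, 35.5% rose and 19.5% fell. The summed level of the 9 genes was 2213 and 2135 TPM in the barasertib libraries and 1979 and 2065 TPM in the DMSO libraries, a log2 difference of 0.10 that became -0.014 after median-of-ratios scaling. The median change of single genes was 0.13, near the 0.11 of all tested genes.

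UQCR10, a small supernumerary subunit (gene ID 29796, chr22:30163358-30166402 in hg19), was the one gene of complex III called under all 3 scalings. Its level was 132 and 131 TPM with barasertib and 101 and 101 TPM with DMSO. The replicates lay close together and the groups were well apart. The log2 change was 0.37 with a standard error of 0.046 (adjusted p = 0.00324, limma), and 0.26 after median-of-ratios scaling (adjusted p = 0.0122).

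UQCRC1, a core subunit on the matrix side, was at 156.5 and 153 TPM with barasertib against 124.5 and 131.5 TPM with DMSO. Both treated libraries were higher, by 0.27 on the log2 scale (SE 0.050, limma adjusted p = 0.0117). UQCRQ, the small subunit next to cytochrome b, was at 32.3 and 34.8 against 26.7 and 28.4 TPM, a change of 0.28 (SE 0.073, limma adjusted p = 0.0354). UQCR11, another small subunit, was at 169 and 168 against 144 and 153 TPM, a change of 0.18 (SE 0.050, limma adjusted p = 0.0387). For each of these 3 genes the libraries of the groups did not overlap, but none was called after median-of-ratios scaling (adjusted p = 0.0694, 0.150 and 0.361, limma) or after quantile normalisation. With single libraries left out, UQCRQ and UQCR11 were not called without any one of the 4 (limma adjusted p = 0.0534 to 0.185), and UQCRC1 was not called without DMSO replicate 1 or barasertib replicate 1 (by limma, adjusted p = 0.0536 and 0.0619).

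The 3 complex III transcripts with the highest mean TPM did not pass the test. The third of them, UQCRFS1 (158.8 TPM), was barely above UQCR11 (158.4 TPM), which was called in TPM. UQCRH, the hinge protein that helps cytochrome c to dock, was at 1352 and 1259 TPM with barasertib and 1232 and 1288 TPM with DMSO, so the groups overlapped (log2 0.050, limma adjusted p = 0.444). UQCRFS1, the Rieske iron-sulfur protein that carries electrons toward cytochrome c, was at 167 and 165 against 153.5 and 149.7 TPM. Its difference of 0.13 was close to that of the typical gene (limma adjusted p = 0.0733). UQCRC2, the other core subunit, was at 166 and 171 against 157.5 and 161 TPM (log2 0.083, limma adjusted p = 0.216).

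The remaining 2 genes of complex III were also not called. UQCRB, a ubiquinone-binding subunit, was at 34.9 and 45.6 TPM with barasertib and 35.1 and 44.9 TPM with DMSO, the groups lying on top of each other. UQCRHL, an intronless copy of UQCRH, was listed at 3.28 and 6.82 against 5.0 and 7.24 TPM, and its values are uncertain because reads of the near-identical UQCRH can be placed there. Levels within the complex were far apart: with DMSO they ran from 6.12 TPM for UQCRHL to 1260.0 TPM for UQCRH around a median of 128 TPM, and UQCRQ (27.5 TPM) and UQCRB (40.0 TPM) stood well below it, although the complex holds these subunits in equal number.

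Among the structural subunits of complex IV, 7 of 12 tested genes rose, 1 fell and 4 were not called. Of all tested genes, 22.0% rose and 7.44% fell. Under all 3 scalings 4 subunit genes were higher and 1 lower, beside 10.7% and 7.05% of all tested genes. For genes at 100 TPM or more the shares were 35.5% and 19.5% in TPM, and 16.8% and 16.3% under all 3 scalings. With the assembly factors, the complex IV genes summed to 4844 and 4717 TPM with barasertib and 4203 and 4258 TPM with DMSO, a log2 difference of 0.18 in TPM and 0.058 after median-of-ratios scaling.

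COX6C, a small membrane subunit (gene ID 1345, chr8:100890223-100906242 in hg19), had the smallest p of the 49 tested genes. It was at 179 and 183 TPM with barasertib and 129 and 136 TPM with DMSO. The treated libraries were both higher by more than the gap between replicates. The change was 0.45 on the log2 scale (SE 0.049, limma adjusted p = 0.00227), and 0.33 after median-of-ratios scaling (limma adjusted p = 0.00597).

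COX6A1 (gene ID 1337, chr12:120875893-120878545 in hg19) is the widely expressed form of a subunit that in heart and skeletal muscle is replaced by COX6A2. Its level was 538 and 517 TPM against 410 and 424 TPM, with no overlap. The change was 0.34 (SE 0.041, limma adjusted p = 0.00319). The muscle form COX6A2 was listed at 0 in all 4 libraries.

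COX7B (gene ID 1349, chrX:77154961-77160881 in hg19), a membrane subunit, was at 537 and 507 TPM with barasertib and 427 and 426 TPM with DMSO. The DMSO libraries were almost equal and both treated libraries lay above them. The change was 0.29 (SE 0.043, limma adjusted p = 0.00583). Its testis form COX7B2 was listed at 0 in every library.

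COX8A (gene ID 1351, chr11:63742079-63744015 in hg19), another small membrane subunit, was at 475 and 475 TPM with barasertib and 382 and 398 TPM with DMSO. Here the treated libraries were almost equal and the DMSO libraries lay below. The change was 0.28 (SE 0.040, limma adjusted p = 0.00514). COX8C, the testis form, was listed at 0 throughout. These 4 genes remained higher after median-of-ratios scaling, where their limma adjusted p-values were 0.00597 for COX6C, 0.0144 for COX6A1, 0.0368 for COX7B and 0.0278 for COX8A.

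COX7A2L (gene ID 9167, chr2:42562701-42596097 in hg19) was the one subunit gene of complex IV that fell. The protein resembles the COX7A subunits and is known for joining complexes III and IV into supercomplexes. Its level was 190.1 and 201 TPM with barasertib and 230.3 and 242 TPM with DMSO, so both treated libraries were lower. The change was -0.27 (SE 0.051, limma adjusted p = 0.0120), -0.39 after median-of-ratios scaling and -0.37 after quantile normalisation. Without barasertib replicate 1 it was not called (-0.24, limma adjusted p = 0.0622).

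The COX7A subunits proper were less clear. COX7A2, the form of most tissues, was at 248 and 185 TPM with barasertib and 185.0 and 160.2 TPM with DMSO. Barasertib replicate 1 stood above the other 3 libraries, the groups overlapped, and the difference of 0.31 was not called (SE 0.142, limma adjusted p = 0.146). COX7A1, the heart and muscle form, was low, at 5.57 and 4.90 against 2.49 and 3.68 TPM. Its groups did not overlap, and its change of 0.62 (SE 0.174, limma adjusted p = 0.0421) was not called after median-of-ratios scaling (limma adjusted p = 0.0771), nor without either barasertib library or without DMSO replicate 1 (by limma, adjusted p = 0.110 to 0.178). The summed level of the 3 genes was 417 ± 38.2 TPM (SD, n = 2) with barasertib and 412 ± 8.17 TPM with DMSO, a difference within the spread of the replicates. COX7A2L made up 42.8% and 51.4% of that sum in the treated libraries and 55.1% and 59.7% in the controls.

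Other subunits of complex IV changed less. COX5B, a zinc-binding subunit on the matrix side, was at 619.7 and 597 against 542 and 548.5 TPM and rose by 0.16 (SE 0.038, limma adjusted p = 0.0275). COX6B1, a subunit on the outer face, was at 322 and 324.5 against 296 and 292 TPM and rose by 0.14 (SE 0.039, limma adjusted p = 0.0420). For both genes the libraries did not overlap, and neither was called after median-of-ratios scaling, where the changes were 0.039 and 0.021. Quantile normalisation kept the call of COX5B (0.22, limma adjusted p = 0.0128) but not that of COX6B1 (0.066, limma adjusted p = 0.274). Leaving out any one library also ended both calls (limma adjusted p = 0.0509 to 0.172).

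COX7C, the most abundant subunit transcript, was at 620.1 and 609 TPM with barasertib and 558.5 and 576 TPM with DMSO. Its difference of 0.12 was near that of the typical gene and was not called (limma adjusted p = 0.0625). The change of COX7C was -0.002 after median-of-ratios scaling, while quantile normalisation called it higher, by 0.19 (limma adjusted p = 0.0156). COX4I1, the main form of a subunit through which ATP is known to regulate the enzyme, was at 448 and 434 against 441.5 and 421 TPM, with overlapping groups (log2 0.031, limma adjusted p = 0.614). The lung form COX4I2 was listed at 0 in all libraries. COX5A, the partner of COX4 on the matrix side, was also not called. COX6B2, the testis form of COX6B1, was below the level for testing, at 0.405 and 0.281 TPM with barasertib and 0.787 and 0.868 TPM with DMSO. The tissue and testis forms thus made up at most a small part of each subunit's transcripts. At the highest these were 0.297% for COX6B2 and 1.26% for COX7A1. The COX7A1 value is a share of a sum that includes COX7A2L, and it is larger with COX7A2L left out.

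**Figure D2:**
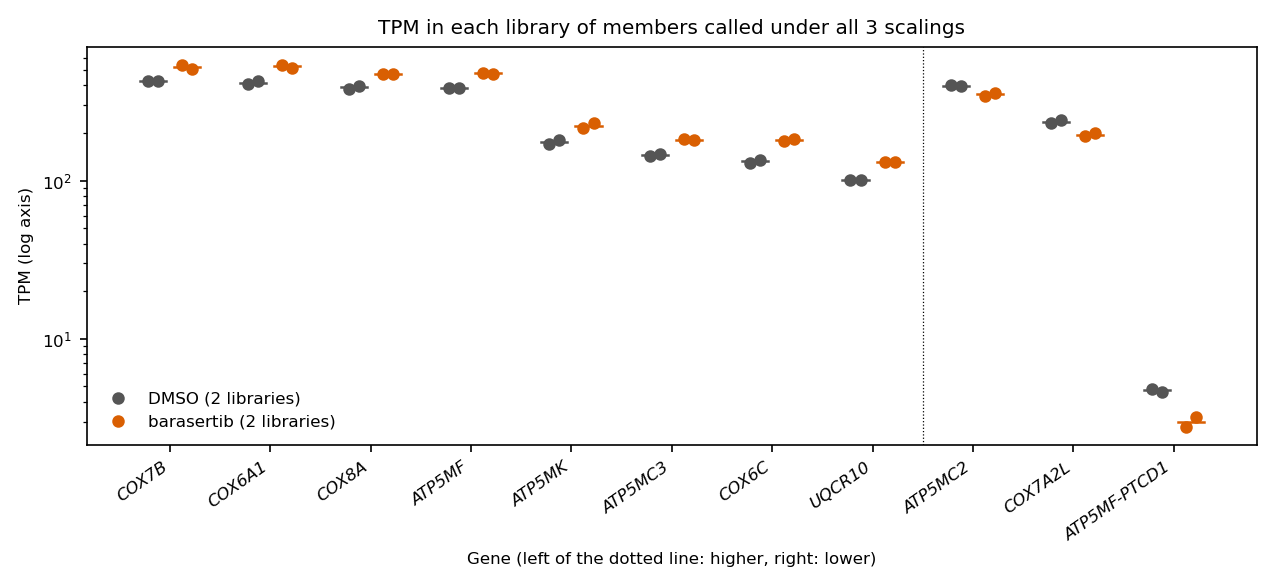
TPM in each library (log axis) of the 11 genes called under all 3 scalings; grey points are the 2 DMSO libraries, orange points the 2 barasertib libraries and bars the group means. The 8 genes left of the dotted line are higher and the 3 right of it lower with barasertib. The genes were chosen by these calls, and the groups do not overlap for any of them.

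The 9 assembly factors of complex IV were scarcer and only 1 was called, where 29.5% of all tested genes were called. With DMSO they ran from 7.01 TPM for COX18 to 58.7 TPM for COX17 around a median of 22.5 TPM, against a median of 381.5 TPM for the tested subunits. All 9 differences were positive in TPM, with a median of 0.25 (0.14 after median-of-ratios scaling, where COX11 and COX14 were negative). COX20, a chaperone of the copper-bearing subunit COX2, was at 17.3 and 17.8 TPM with barasertib and 14.4 and 13.8 TPM with DMSO. Its libraries did not overlap and it rose by 0.30 (SE 0.076, limma adjusted p = 0.0315), a call that median-of-ratios scaling removed (limma adjusted p = 0.123), as did leaving out any one library (limma adjusted p = 0.0847 to 0.131).

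COX17, which delivers copper, was at 65.6 and 74.7 against 57.2 and 60.2 TPM (log2 0.25, limma adjusted p = 0.0553). COX11, which inserts copper into the COX1 subunit, was at 37.1 and 41.8 against 35.4 and 39.3 TPM (log2 0.077, limma adjusted p = 0.531). COX16, which takes part in the copper assembly of COX2, was at 38.4 and 42.0 against 27.6 and 34.8 TPM (log2 0.36, SE 0.116, limma adjusted p = 0.0619). Only COX11 of these 3 overlapped between the groups. The enzymes of heme A synthesis, COX10 and COX15, COX19 of the copper route, and COX14 and COX18, which act on the large mitochondrial subunits, were not called, with changes from 0.069 to 0.28. COX11 and COX15 each overlap a gene on the opposite strand, as do ATP5PD, ATP5PF and ATP5MC1 of ATP synthase among other members. COX16 lies within a readthrough gene on the same strand. The use of strand in the deposited values was not given in the sources used here.

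In ATP synthase, 7 of 19 tested genes rose, 2 fell and 10 were not called, where 22.0% of all tested genes rose and 7.44% fell. Under all 3 scalings 3 were higher and 2 lower, beside 10.7% and 7.05% of all tested genes. For genes at 100 TPM or more the shares were 35.5% and 19.5% in TPM, and 16.8% and 16.3% under all 3 scalings. The genes summed to 6659 and 6743 TPM with barasertib and 6081 and 6092 TPM with DMSO. The groups were far apart against their spread, but the log2 difference of 0.14 was close to that of the typical gene and was 0.020 after median-of-ratios scaling.

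The head of the enzyme, F1, holds the catalytic sites. ATP5F1B, the catalytic beta subunit and the most abundant transcript of the complex, was at 974.5 and 979.5 TPM with barasertib and 837.5 and 874 TPM with DMSO. Both treated libraries were higher, by 0.19 (SE 0.037, limma adjusted p = 0.0130), but it was not called with median-of-ratios scaling (0.073, limma adjusted p = 0.178) or without either barasertib library or without DMSO replicate 1 (by limma, adjusted p = 0.0605 to 0.0628). Quantile normalisation kept the call of ATP5F1B, at 0.27 (limma adjusted p = 0.00666). ATP5F1A, the alpha subunit that alternates with beta, was at 639 and 638 against 625 and 641 TPM, with overlapping groups (log2 0.011, limma adjusted p = 0.831). The gamma, delta and epsilon subunit genes ATP5F1C, ATP5F1D and ATP5F1E were not called, with changes from 0.003 to 0.14. ATP5F1E lies within a readthrough gene on the same strand.

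The peripheral stalk keeps the head from turning with the ring. In TPM 3 of its 4 genes rose, where 22.0% of all tested genes and 35.5% of those at 100 TPM or more did. ATP5PF, coupling factor 6, was at 221.5 and 219.6 TPM with barasertib and 182 and 185.5 TPM with DMSO. The groups did not overlap, and it rose by 0.26 (SE 0.042, limma adjusted p = 0.00760) with an adjusted p of 0.0515 by limma after median-of-ratios scaling. ATP5PO, the subunit that ties the stalk to the head, was at 656 and 649 against 579.7 and 598 TPM and rose by 0.15 (SE 0.037, limma adjusted p = 0.0296). ATP5PD, the d subunit, was at 549 and 566 against 493.5 and 482 TPM and rose by 0.19 (SE 0.038, limma adjusted p = 0.0153). All 8120 bases of ATP5PD lie within KCTD2 on the opposite strand, listed at 57.4 and 54.1 against 43.4 and 44.2 TPM. Neither ATP5PO nor ATP5PD was called after median-of-ratios scaling, ATP5PO was not called without any one library (limma adjusted p = 0.0641 to 0.145), and ATP5PD was not called without DMSO replicate 2 or barasertib replicate 2 (by limma, adjusted p = 0.0686 and 0.0665). Quantile normalisation kept all 3 calls: ATP5PF at 0.17, ATP5PO at 0.23 and ATP5PD at 0.20 (limma adjusted p = 0.0319, 0.00842 and 0.0212). The b subunit gene ATP5PB was at 319 and 333 against 295 and 301 TPM, which was not called (log2 0.13, limma adjusted p = 0.0681).

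Of the 5 tested genes for small membrane subunits, 2 rose under all 3 scalings and 3 were not called. Under all 3 scalings 10.7% of all tested genes were higher, and 16.8% of those at 100 TPM or more. ATP5MK (gene ID 84833, chr10:105148809-105156270 in hg19), also known as DAPIT and needed for rows of enzyme dimers, was at 216 and 229.9 TPM with barasertib and 169.6 and 181 TPM with DMSO. Both treated libraries were above both controls. It rose by 0.35 (SE 0.055, limma adjusted p = 0.00721), and by 0.23 after median-of-ratios scaling (limma adjusted p = 0.0260).

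ATP5MF (gene ID 9551, chr7:99055784-99063824 in hg19), the f subunit, was at 482 and 475 TPM against 382 and 387 TPM. Replicates were close and the groups apart. It rose by 0.32 (SE 0.037, limma adjusted p = 0.00276), and by 0.20 after median-of-ratios scaling (limma adjusted p = 0.0138). ATP5MG, ATP5ME and ATP5MJ, the g and e subunits and a small proteolipid, were not called, with changes from 0.16 to 0.20 and no overlap of the groups. ATP5MGL, a copy of ATP5MG inside another gene, was listed at 0 in 3 libraries and 0.012 TPM in 1.

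ATP5MF-PTCD1 (gene ID 100526740, chr7:99014362-99063824 in hg19) is a readthrough gene that runs from ATP5MF into PTCD1 and shares 8041 bases of ATP5MF on the same strand. It was listed at 2.78 and 3.19 TPM with barasertib and 4.80 and 4.64 TPM with DMSO. Both treated libraries were lower, with a log2 change of -0.52 (SE 0.127, limma adjusted p = 0.0283), while ATP5MF rose and PTCD1 itself was listed at 19.4 and 17.3 against 9.93 and 14.8 TPM. Reads in the shared exons can belong to any of these transcripts, so the value of the readthrough gene is uncertain. Leaving out any one of the 4 libraries removed the call, with limma adjusted p-values from 0.0624 to 0.108.

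The c-subunit genes moved in both directions. ATP5MC1, ATP5MC2 and ATP5MC3 encode the same mature protein of the rotating ring behind different import sequences. ATP5MC2 (gene ID 517, chr12:54058944-54070512 in hg19) was at 345 and 357.5 TPM with barasertib and 399.7 and 397 TPM with DMSO. Both treated libraries were lower, with a log2 change of -0.18 (SE 0.040, limma adjusted p = 0.0201) and of -0.30 after median-of-ratios scaling (limma adjusted p = 0.00415). It was not called without barasertib replicate 1, DMSO replicate 1 or DMSO replicate 2, with limma adjusted p-values from 0.0695 to 0.0807.

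ATP5MC3 (gene ID 518, chr2:176040986-176046490 in hg19) moved the other way. It was at 183 and 179.9 TPM with barasertib and 142 and 147.5 TPM with DMSO, with no overlap. It rose by 0.32 (SE 0.046, limma adjusted p = 0.00530), and by 0.21 after median-of-ratios scaling (limma adjusted p = 0.0236). ATP5MC1 was at 198 and 179.8 against 176 and 178 TPM and was not called (log2 0.093, limma adjusted p = 0.274).

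The sum of the 3 c-subunit genes hardly differed in TPM, at 726 and 717 with barasertib and 718 and 723 with DMSO. The groups overlapped. This near-equal sum holds in the deposited TPM only. Median-of-ratios scaling divides the barasertib libraries by 1.041 and 1.048 and the DMSO libraries by 0.9594 and 0.9645. After it, both treated sums lie below both control sums. Within that sum, ATP5MC2 made up 48.7% ± 1.65 (SD, n = 2) with barasertib and 55.3% ± 0.526 with DMSO, and ATP5MC3 made up 25.1% ± 0.0605 against 20.1% ± 0.423. The ratio of ATP5MC3 to ATP5MC2 was 0.530 and 0.503 in the treated libraries and 0.356 and 0.371 in the controls. A factor per library cannot change this ratio. The pair was chosen for its opposite calls, and each gene already separated the groups, so the ratio could not overlap between them.

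**Figure D3:**
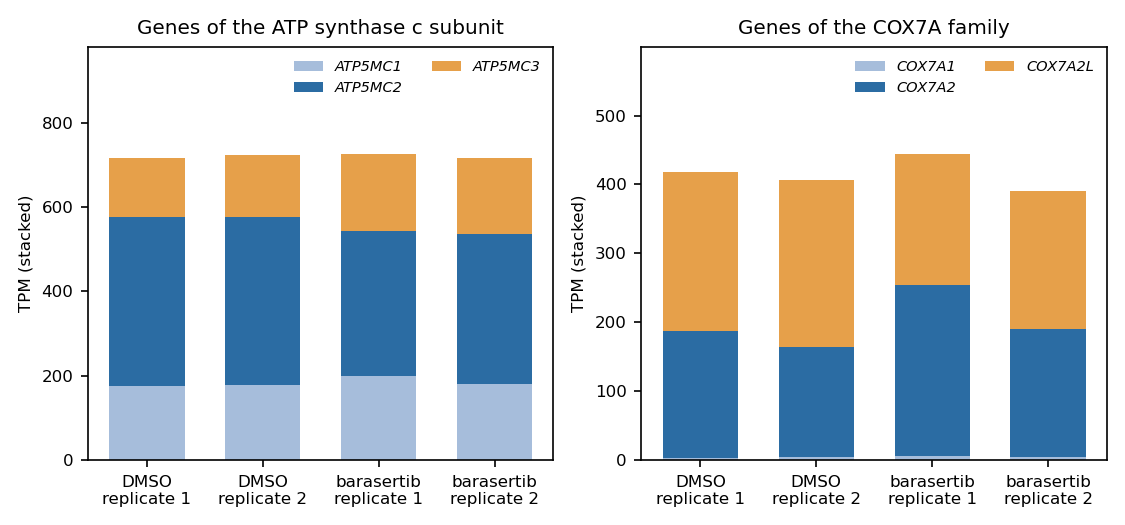
Stacked TPM per library of the 3 genes of the ATP synthase c subunit (left) and of the 3 genes of the COX7A family (right). The c-subunit totals run from 717 to 726 TPM while the ATP5MC3 part is larger and the ATP5MC2 part smaller in both barasertib libraries, and in the COX7A family the COX7A2L part is smaller in both.

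ATP5IF1, which blocks the enzyme when it runs backwards, is named here after its values were seen. It was at 346 and 338 TPM with barasertib and 331 and 333 TPM with DMSO (log2 0.041, limma adjusted p = 0.465). With the deposited coverage, scaled to one total per library, in place of TPM, its change was 0.17 (limma adjusted p = 0.0393). The ratio of this scaled coverage to TPM, which is 1 where both measures give a gene the same level, was 0.379 and 0.375 in the treated libraries and 0.346 and 0.344 in the controls. For COX7A2L and ATP5MC2 the coverage gave changes of -0.27 and -0.17, close to those in TPM. Their levels differed far more between the 2 measures. The ratio was 0.232 for COX7A2L in every library and 0.327 to 0.333 for ATP5MC2. It was 0.933 to 0.936 for COX7A2, 0.899 to 0.906 for ATP5MC1 and 0.762 to 0.766 for ATP5MC3. The levels of COX7A2L and ATP5MC2, and their shares of the summed families, thus depend on the measure.

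The members are short transcripts, with a median length of 1098 bases in GENCODE against 2648 bases over the tested genes with a length. Across those 13597 genes the log2 change ran weakly with length (Spearman's rho = -0.069) and with mean TPM (rho = -0.11), a description across genes that share the same 4 libraries. After a smooth trend of the change on expression and length was removed, 13 members were higher and 3 lower by limma's adjusted p, where 12.8% of all genes were higher and 11.3% lower. The median change of the members was then 0.12 against 0.007 over all genes.

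Related genes outside the symbol rule are counted below in TPM, where 22.0% of all tested genes were higher and 7.44% lower, and after median-of-ratios scaling, where 12.0% were higher and 12.3% lower. Of 36 complex I genes 19 rose and none fell in TPM, and 9 rose and none fell after median-of-ratios scaling, with medians of 0.21 and 0.092. NDUFB3, an accessory subunit, was at 129 ± 3.36 against 92.5 ± 3.69 TPM (SD, n = 2; log2 0.47, limma adjusted p = 0.00256), and NDUFA8 and NDUFC2 rose by 0.45 and 0.44. Of 8 complex II genes 4 rose and none fell, SDHA, the flavoprotein subunit, by 0.30, SDHAF3, an assembly factor, by 0.30 and SDHC, a membrane anchor, by 0.26. None of the 4 was called after median-of-ratios scaling.

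Among the other complex III genes 2 of 10 rose, the assembly factors UQCC4 (15.9 ± 0.623 against 11.1 ± 1.19 TPM) and TTC19 (69.2 ± 4.24 against 56.5 ± 1.04 TPM). CYC1, a subunit named here after its values were seen, was not called (99.2 against 101 TPM, log2 -0.026, limma adjusted p = 0.824). Among 22 other complex IV genes 8 rose and 2 fell in TPM, while 3 rose and 6 fell after median-of-ratios scaling, so the balance of the calls turned with the scaling. CMC2, an assembly factor, was at 64.7 and 77.9 TPM with barasertib and 41.2 and 43.6 TPM with DMSO and rose by 0.73 (SE 0.096, limma adjusted p = 0.00399). SLIRP, which steadies mitochondrial mRNA, and CMC1, which holds new COX1 protein, rose by 0.39 and 0.32. The 2 that fell in TPM, named after their values were seen, were OXA1L, the inner membrane insertase (193 against 236 TPM, limma adjusted p = 0.00683), and HIGD2A, an assembly factor (209.7 against 239 TPM, limma adjusted p = 0.0262). Of 6 other ATP synthase genes 1 rose, FMC1, an F1 assembly factor, at 9.47 and 15.2 against 6.93 and 7.19 TPM. FMC1 and TTC19 were not called after median-of-ratios scaling, while UQCC4, CMC2, SLIRP, CMC1, OXA1L and HIGD2A were called under all 3 scalings.

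Cytochrome c and heme synthesis had 2 of 10 genes higher, CYCS (cytochrome c, 0.27) and UROD (0.25), and neither was called after median-of-ratios scaling (adjusted p = 0.195 and 0.129, limma), where 1 gene of the list was lower. Of 18 genes for transcription factors and mitochondrial DNA expression 3 were higher, the helicase TWNK (0.33), MTERF1 (0.26) and the DNA-binding SSBP1 (0.18), and none was called after median-of-ratios scaling. The factors whose motifs were searched were not called: NRF1 had a mean of 13.3 TPM with barasertib and 15.4 TPM with DMSO (limma adjusted p = 0.217), GABPA 34.1 and 33.0 TPM (limma adjusted p = 0.770) and YY1 99.0 and 89.3 TPM (limma adjusted p = 0.0721). Of 22 import genes 6 rose and 2 fell in TPM, while 2 rose and 4 fell after median-of-ratios scaling. Under both, TOMM5 and TIMM8A rose, in TPM by 0.34 and 0.33. The 2 that fell in TPM were the receptor TOMM20 (-0.27) and, named after its values were seen, TOMM7 (-0.18). Of 77 mitochondrial ribosomal protein genes 28 rose and 2 fell in TPM, with a median of 0.17, while 4 rose and 6 fell after median-of-ratios scaling, with a median of 0.056. In TPM, MRPL33, MRPL36 and MRPS31 rose by 0.44, 0.38 and 0.36, and MRPL36 was not called after median-of-ratios scaling (limma adjusted p = 0.0502). Cytosolic ribosomal protein genes stood apart, with 62 of 83 lower, 2 higher and a median of -0.21. The largest called changes in the list were in genes far below its median level of 2215 TPM: RPL21 (2.95 against 5.56 TPM, -0.72), RPL22L1 (21.9 against 35.8 TPM, -0.68) and RPL39L (167 against 247 TPM, -0.57). After median-of-ratios scaling 73 of the 83 were lower and 1 higher, and quantile normalisation left 22 of the 83 lower and 7 higher.

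**Figure D4:**
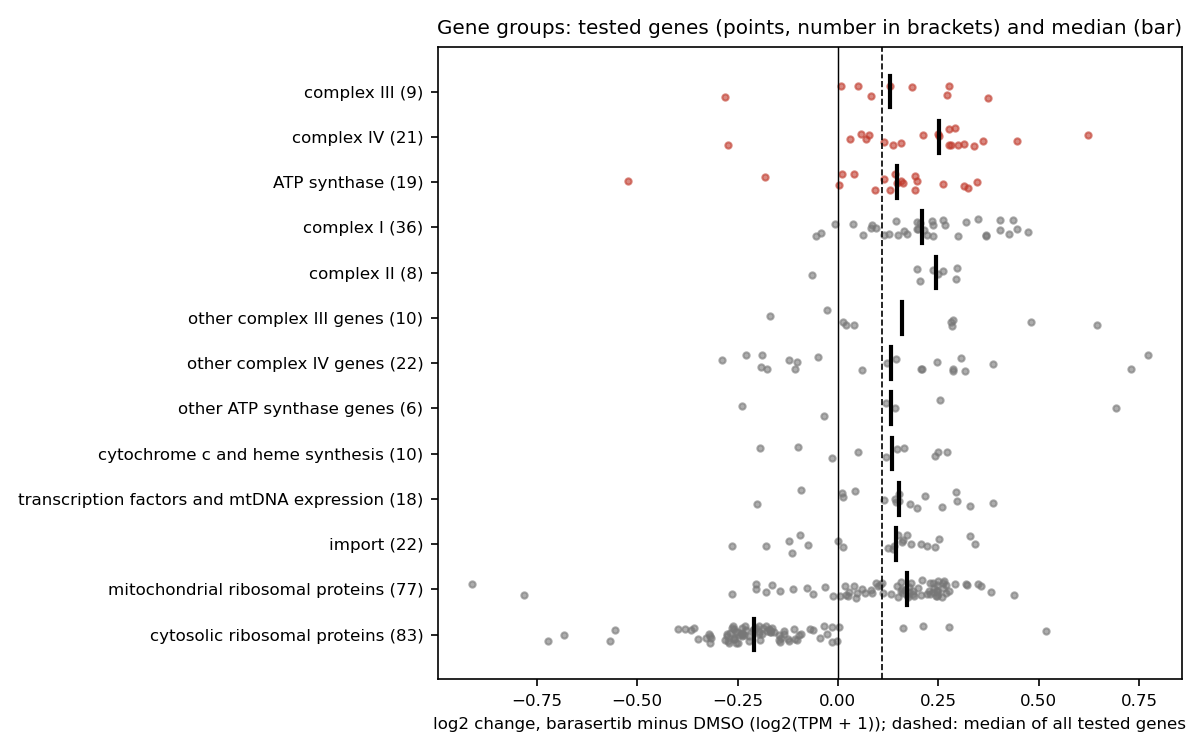
Log2 change (barasertib minus DMSO, log2(TPM + 1)) of every tested gene by group, with points for genes, thick bars for the group median and a dashed line for the median of all tested genes (0.11). The medians of complex III (0.13), complex IV (0.25) and ATP synthase (0.15) lie at or right of the line. They are 0.012, 0.14 and 0.029 after median-of-ratios scaling and 0.068, 0.18 and 0.088 after quantile normalisation. Cytosolic ribosomal protein genes mostly lie left of 0, with a median of -0.21 in TPM.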

How the data were processed

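RNA-seq libraries for polyadenylated RNA were made with a stranded kit, per the labels' protocols, from 2 barasertib and 2 DMSO samples. HISAT2, StringTie and hg19 are named in the submitters' processing notes, without versions or options. Per the file headers, each gene row deposited by the authors holds coverage (the mean depth, a signal), FPKM and TPM. The deposited TPM sum to 1000000 in every library. Rows of one gene ID were summed, giving 27685 IDs, of which 27559 matched RefSeq (GRCh38.p14, names and promoter windows) and 126 did not. Positions of genes are those of the files, in hg19. All 55 members stood on 1 row each.

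Read numbers: not given in the sources used here. The maximum ratio of coverage to FPKM gives the aligned bases, 4.59 and 4.53 Gb with barasertib and 4.22 and 4.43 Gb with DMSO. Replicates differed on the log2 scale with an SD of 0.25 in each group, or 0.16 and 0.13 among the 1717 genes at 100 TPM or more.

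Values of log2(TPM + 1) were compared by group with limma (3.58.1, R 4.3.3), two-sided, with variances moderated along a trend with expression (degrees of freedom 2 residual, 4.09 prior), over the 13938 genes whose mean reached 1 TPM, with Benjamini-Hochberg adjustment over all of them and a threshold of 0.05. The fit was tested on simulated data. Sums, shares and ratios over members are given as a description with no test, since the members were chosen with results known. Alternatives were no filter, a mean of 5 TPM, pseudocounts of 0.1 and 5, FPKM, median-of-ratios and quantile scaling, no variance trend, a block for the replicate number, omission of each library, a 1.5-fold threshold, the highest row per gene ID, and removal of loess trends (span 0.3) on expression and on transcript length (GENCODE release 29). The coverage in place of TPM was added after seeing the data. Python 3.11.15 with pandas 2.3.3 and matplotlib 3.10.9 made tables and plots.

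The members and the lists were chosen with earlier results of these data known, so no test over a list was made. Genes named with values were, per complex (assembly factors apart), the 3 most abundant and up to 4 largest called rises and falls, tissue and testis forms with their common form, near-identical copies, and up to 3 called genes per other list, or the one with the smallest p. The other members are accounted for beside them.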

Additional observations from a re-analysis of the deposited data

How the results depend on the processing

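Of the 22 called genes, 8 stayed called in the same direction in all 17 alternatives other than the 1.5-fold threshold, namely UQCR10, COX6A1, COX6C, COX7B, COX8A, ATP5MC3, ATP5MF and ATP5MK. No called gene changed direction in any alternative, while 14 genes that were not called had a difference of either sign. COX7A2L lost its call without the variance trend and without barasertib replicate 1. The counts of called genes depended on the setting. At a minimum mean of 5 TPM, ATP5MF-PTCD1 and COX7A1 (means of 3.85 and 4.16 TPM) were no longer tested. The 1.5-fold threshold keeps the same fit and drops smaller changes by definition. For the other settings the cause was not tested, except where fewer libraries or another scaling is the setting itself.

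For complex III, 4 higher genes became 2 without a filter and 1 under each of median-of-ratios scaling, quantile normalisation, no variance trend, and removal of the expression trend with or without length, 0 at 1.5-fold, and 1 to 2 with a library left out. For complex IV, 8 higher genes became 4 without a filter, under median-of-ratios scaling and with the expression trend removed, 5 without the variance trend and with expression and length removed, 1 at 1.5-fold, and 5 to 6 with a library left out; the 1 lower gene became 2 without a filter and 0 without the variance trend or at 1.5-fold, and 0 to 1 with a library left out. For ATP synthase, 7 higher genes became 3 under median-of-ratios scaling or without the variance trend and 0 at 1.5-fold, and 4 to 5 with a library left out; the 2 lower genes became 1 without a filter, at a mean of 5 TPM and without the variance trend, 0 at 1.5-fold, and 0 to 1 with a library left out. In the other lists together, 75 higher and 68 lower genes became 20 higher and 91 lower under median-of-ratios scaling, which turned the excess of rises into an excess of falls, 34 higher and 37 lower under quantile normalisation, 25 and 18 without the variance trend, 2 and 2 at 1.5-fold, 44 lower without a filter, 27 and 31 higher with the expression trend and with expression and length removed, and 30 to 45 higher with a library left out. The summed level of complex III reversed from 0.10 to -0.014 after median-of-ratios scaling, and those of complex IV and ATP synthase went from 0.18 to 0.058 and from 0.14 to 0.020.

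Whether the replicate numbers pair the samples is not known. Deviations of same-numbered libraries had a correlation of 0.023 over the tested genes, which cannot settle it. With the replicate number as a block 21 members were higher and 3 lower. With only 2 libraries per group and aligned bases of 4.22 to 4.59 Gb, calls of single genes rest on few values, and depth in reads is unknown.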
